A study of Mus musculus with 12 samples.

Results

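The response of Hnrnpa0 shRNA cells to 4-hydroxytamoxifen (4-OHT) was taken from 6 of the 12 arrays of the series, chosen by their titles. The 3 arrays of PUER cells carrying a short hairpin RNA (shRNA) against Hnrnpa0 and kept for 24 h in 2 nM 4-OHT were compared with the 3 arrays of shRNA cells harvested before the drug, each set with replicates A, B and C. PUER is a mouse myeloid cell line that lacks its own PU.1 and in its place makes a PU.1 joined to the hormone-binding region of the estrogen receptor, so that 4-OHT switches the joined protein on. All cells of the series, controls included, were PUER cells grown in suspension with IL-3, infected with a retroviral vector and sorted on its GFP marker; the other 6 arrays hold the same conditions in cells with a control vector. The design text describes 3 independent experiments with their own clones for each vector, and the labels do not say whether the array before and the array after 4-OHT with the same letter came from the same clone. The labels name a single shRNA construct. They mention vehicle in the protocol but label no array as vehicle-treated, so 4-OHT and 24 h in fresh medium cannot be told apart.

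PU.1, the product of Spi1, is an ETS-family transcription factor that binds purine-rich DNA around a GGAA core. High PU.1 activity turns on macrophage genes, among them receptors for growth factors, chemokines, antibodies and microbial products, while lower activity together with C/EBPalpha and Gfi1 favours granulocytes. Progenitors grown in IL-3 keep stem and progenitor factors such as Kit, Myb and Gata2 and the granule protease genes of early granulocytes. Hnrnpa0 encodes an RNA-binding protein of the hnRNP family that recognises AU-rich elements in messenger RNA.

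Each level below is the log2 of the fluorescence intensity of a gene's brightest probe, less the 75th percentile of its array, so that 0 is the 75th percentile itself and a difference of 1 is a doubling. A gene is said to have risen or fallen where the adjusted p of the fitted difference was under 0.05 over all 15061 genes tested. A fold is written "at least" where the dimmer group was not well above background on any array, or where the brighter group was saturated on all 3. In the former case the bound rests on the dimmest signals that each array still measured. Where only some arrays of a group measured a gene, their number is given and the fold rests in part on signals under background or at the ceiling. The 75th percentile lay between 1565 and 2029 intensity units on the arrays before 4-OHT and between 1817 and 2583 after it. Between 52.5% and 54.7% of spots were well above background and between 1.71% and 2.63% were saturated. The correlation across genes was 0.991 to 0.994 for pairs of shRNA arrays from the same group and 0.960 to 0.964 for pairs from different groups. Before 4-OHT, replicates A and B were on slide 2 and replicate C was on slide 3, which also held all 3 arrays after 4-OHT, so that most of the baseline lay on another slide.

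Hnrnpa0, the gene the shRNA targets, was measured first. Its level was 1.93, 1.57 and 1.00 in replicates A, B and C before 4-OHT and 0.56, 0.65 and 0.46 after it. Replicate C, the only array before 4-OHT on slide 3, was the lowest of the 3, and all 3 were above every array after the drug. The log2 change was -0.95 (SE 0.18, adjusted p = 0.00194), against -0.45 when the 3 arrays after 4-OHT were set against replicate C alone. A second probe gave -0.86. In control cells the level was 3.05 ± 0.07 (SD, n = 3) before and 2.65 ± 0.07 after 4-OHT, above all 6 shRNA arrays. Probes of Spi1 and of Esr1, the gene of the estrogen receptor, read 0.42 and 0.75 lower after 4-OHT (log2 changes of -0.42 and -0.75, adjusted p = 0.0076 and 0.000265); whether they read the fusion transcript is not known.

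The response was broad. Of 15061 genes tested, 5769 passed (38.3%): 2480 rose (16.5%) and 3289 fell (21.8%), with a median log2 change over all genes of -0.08. The excess of falls depended on the scaling: quantile normalization gave 2673 higher and 2545 lower, and median scaling 2041 and 2004. The shares of 16.5% and 21.8% are the background for the counts of each gene list below. Large changes were mostly rises. At least 8-fold, 121 genes were higher and 43 lower, and at least 16-fold 76 were higher and 13 lower, counting genes past the threshold by their fitted change. Among the genes that fell, 77.3% did so by less than 2-fold. The 3 arrays of one group lay clear of the 3 of the other in 7754 genes (51.5%), so that separation alone marks no gene out here. In another 518 genes the probe was saturated in both groups. Their median difference was -0.36. A saturated signal has a fixed ceiling, so this difference follows the arrays' 75th percentiles and gives no direction for the transcript; 5 of the 518 passed.

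The largest rises, ordered by fold with bounds, were in receptors and adaptors of the myeloid cell surface and in 2 members of the Bcl2a1 family. Clec4b1, a C-type lectin of the Dectin-2 gene cluster on chromosome 6, read -4.91, -4.31 and -4.21 before 4-OHT and 4.09, 3.95 and 4.02 after it. It was dim on every array before the drug and brighter than the 75th percentile on every array after it. The difference was 8.50 (SE 0.22, adjusted p = 5.21e-09), or 362-fold. Pira6, an activating immunoglobulin-like paired receptor, was under background before 4-OHT and rose at least 149-fold. Clec4a2 and Clec4n, lectins of the same cluster as Clec4b1, rose 223-fold and 110-fold. Clec4a2 had a second probe with the same direction, and another probe that was not well above background on any shRNA array. Clec4a2, Bcl2a1b and Pirb were saturated on 2 of the 3 arrays after 4-OHT, which caps their folds.

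Ptprc, the gene of the leukocyte antigen CD45, read -7.28, -6.94 and -7.15 before 4-OHT, under background on all 3 arrays, and 1.5, 1.45 and 1.18 after it. It rose at least 95.3-fold, and its 3 other probes differed by 5.56, 2.50 and 1.82 in the same direction. These probes lie on mouse build mm7 (the build of the array design) on chromosome 1, the tested probe at 137950290 to 137950349. The same pattern of no signal before and clear signal after was seen for Il1rl2, a receptor chain for IL-36 (at least 110-fold), and, just outside the 15, for Sucnr1, the succinate receptor (at least 50.2-fold). Mmp9, the gelatinase of neutrophil and macrophage granules, rose 95.8-fold from a baseline that 2 of 3 arrays measured. Ccr2, the chemokine receptor of inflammatory monocytes, rose 85.8-fold from a baseline that 1 of 3 measured. Sla, an adaptor that dampens receptor signalling, Sirpb1a and Pirb, paired immunoglobulin-like receptors, Marchf1, a ubiquitin ligase of MHC class II, and Il18, an inflammasome cytokine, rose 82.2-, 76.3-, 67.3-, 60.8- and 52.0-fold in that order, with the Marchf1 baseline measured on 2 of 3 arrays.

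**Figure D1:**
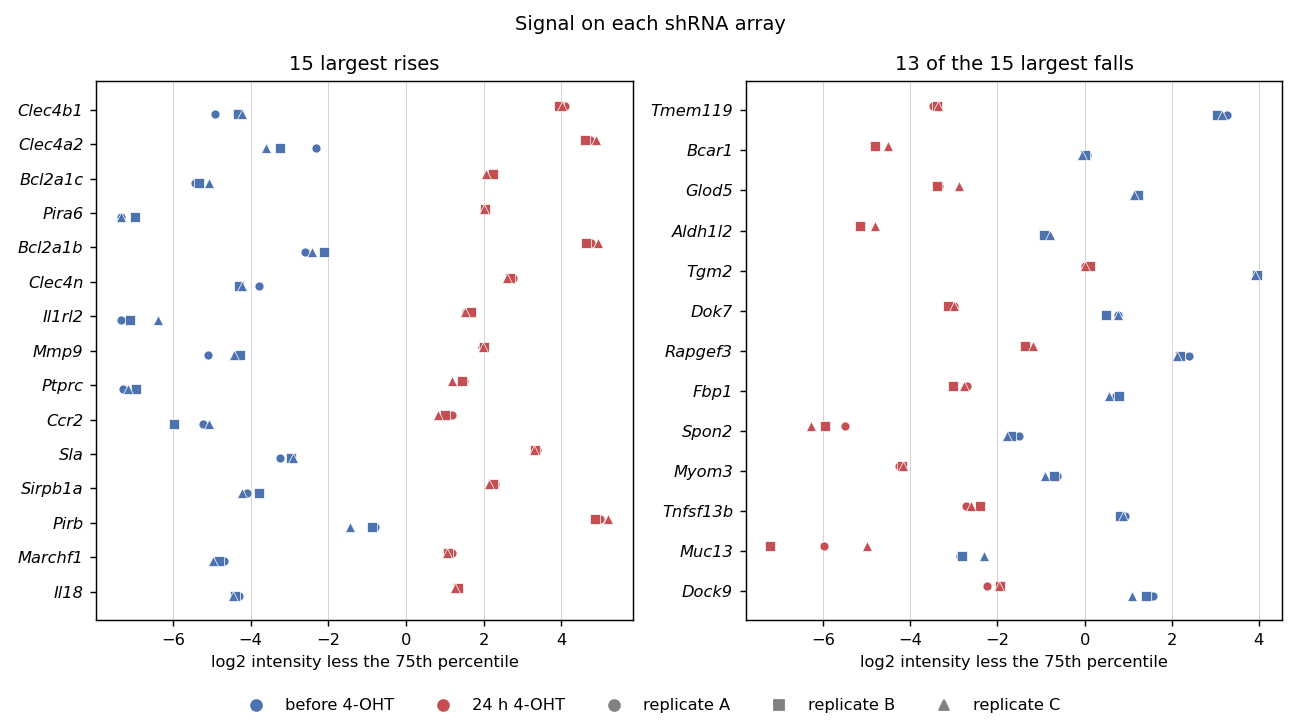
Log2 intensity less the array's 75th percentile (x axis) of the 15 largest rises (left) and 13 of the 15 largest falls (right) on each of the 6 shRNA arrays; blue is before and red is after 24 h of 4-OHT, and the marker shape gives the replicate. Only genes whose groups do not overlap could enter, so the gap between the colours was set by the choice of genes. Clec4b1 runs from -4.91 at the left to 4.09 at the right; values under about -5 are not well above background and have no order among themselves.

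Bcl2a1b and Bcl2a1c encode near-identical short-lived survival proteins of the Bcl2 family, and since the copies are so alike a probe may read more than its own gene. Bcl2a1b read -2.60, -2.12 and -2.43 before 4-OHT and 4.76, 4.63 and 4.95 after it, a rise of 143-fold (log2 7.16, SE 0.14) with 2 of the 3 arrays after it saturated. Bcl2a1c read -5.42, -5.32 and -5.08 before, with 1 array well above background, and 2.22, 2.23 and 2.05 after, a rise of 174-fold. Promoters of the leading genes were searched for GAGGAAG, a purine-rich form of the ETS core, on either strand, because PU.1 is the protein that 4-OHT switches on in these cells. The RefSeq windows used run from 250 bases before to 50 after each annotated start on build GRCm38.p6. Of the 15 largest rises 11 had a window and 4 held the motif (Bcl2a1b, Bcl2a1c, Pirb and Marchf1), and of the 15 largest falls 8 had a window and 1 held it (Fbp1), beside 13.6% of all 32851 windows of this length and 15.5% of the 9766 tested genes with a window. A match is a run of letters, not a measured binding site. The 250 bases before the start are shown for 3 of the genes, on the gene's own strand, with the motif in capitals; these are the 3 largest of the rises that hold it, and 2 of them are copies of each other.
Bcl2a1b: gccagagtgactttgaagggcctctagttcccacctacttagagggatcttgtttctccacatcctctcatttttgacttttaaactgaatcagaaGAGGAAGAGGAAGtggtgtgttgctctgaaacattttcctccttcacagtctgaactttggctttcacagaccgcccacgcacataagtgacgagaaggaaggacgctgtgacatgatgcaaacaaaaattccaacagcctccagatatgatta
Bcl2a1c: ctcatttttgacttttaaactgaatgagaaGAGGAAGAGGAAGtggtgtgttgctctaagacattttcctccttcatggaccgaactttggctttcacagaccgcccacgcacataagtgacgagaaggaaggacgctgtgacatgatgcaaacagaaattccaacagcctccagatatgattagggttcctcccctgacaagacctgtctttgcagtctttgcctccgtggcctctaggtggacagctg
Pirb: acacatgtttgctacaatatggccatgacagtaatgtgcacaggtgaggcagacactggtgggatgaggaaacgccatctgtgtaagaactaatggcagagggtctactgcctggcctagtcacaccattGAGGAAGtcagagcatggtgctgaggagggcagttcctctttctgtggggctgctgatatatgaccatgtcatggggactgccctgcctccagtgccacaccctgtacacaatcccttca
The Bcl2a1b stretch is chr9:89199023-89199272 on the plus strand, that of Bcl2a1c chr9:114329885-114330134 on the plus strand, and that of Pirb chr7:3720383-3720632 on the minus strand. In both Bcl2a1 genes the motif stands as an overlapping pair, first base at -154 and -148 from the start in Bcl2a1b and at -220 and -214 in Bcl2a1c. Shifted by 66 bases against each other, these 2 stretches were identical at 176 of 184 bases (95.7%). In Pirb the motif begins at -120. Among all genes that rose at least 8-fold and had a window, 28 of 95 held the motif (29.5%), and among those that fell at least 8-fold 3 of 27 (11.1%), given as a description without a test.

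Of the 15 largest falls 13 are described, among them genes of adhesion signalling and metabolism. Tmem119, a membrane protein gene best known from bone-forming cells and microglia, read 3.27, 3.05 and 3.16 before and -3.49, -3.40 and -3.37 after, a fall of 95.6-fold. Bcar1, the adhesion adaptor p130Cas, went from 0.07, 0.00 and -0.05 to -4.84, -4.81 and -4.51, a fall of 26.5-fold. Both genes were bright or moderate on every array before the drug and low on every array after it. Glod5 fell 21.1-fold, the mitochondrial folate enzyme gene Aldh1l2 17.8-fold (1 of 3 arrays after 4-OHT measured it) and the transglutaminase gene Tgm2 14.9-fold. Rapgef3, the cAMP-responsive exchange factor of Rap1, fell 11.6-fold, Dock9, an exchange factor of Cdc42, 10.6-fold, and Fbp1, the gluconeogenic fructose bisphosphatase, 11.5-fold. Tnfsf13b, the B cell survival cytokine BAFF, fell 11-fold, whereas a second, dimmer probe differed by only -0.96 on the log2 scale. Dok7, Spon2, Myom3 and Muc13 made up the 13, with falls between 10.6-fold (Muc13, which 1 of 3 arrays after 4-OHT measured) and 13.1-fold (Dok7) and, for Spon2, at least 11.4-fold.

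Transcription factor genes of myeloid fate fell more often than they rose. Of 36 tested, 20 fell (55.6%, against 21.8% of all genes), 5 rose (13.9%, against 16.5%) and 11 did not pass, with a median log2 change of -0.52, and -0.64 with bounds and without saturated members, against -0.08 over all genes. Gfi1, the repressor needed for granulocyte formation, read 4.93, 5.04 and 5.09 before and 3.15, 3.11 and 3.20 after 4-OHT, a difference of -1.87 (SE 0.07, adjusted p = 1.84e-08), with 1 array before it saturated. Cebpa, the granulocyte-macrophage progenitor factor, read 4.05, 4.03 and 4.08 before and 3.12, 3.19 and 3.30 after, a difference of -0.85. Both stayed among the bright genes of the arrays. Subunits of AP-1 fell: Junb by 2.16 (2 arrays before 4-OHT had a usable spot, both on slide 2), Fos by 1.10 and Fosl2 by 0.69, while Jun differed by 0.01 and did not pass. Nr1h3, the oxysterol receptor LXRalpha, fell by 1.17, Pparg by 0.90 and Mitf by 1.08, and Runx1 differed by 0.05. Among the 11 that did not pass, the tested probes of Cebpb and Klf2 were saturated in both groups. A dimmer, unsaturated probe of each differed by -0.71 and -1.54 in that order, which was not tested.

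The 5 factors that rose were Nr4a1, Egr2, Irf8, Ikzf1 and Tfec. Egr2, which restrains the neutrophil programme in macrophage precursors, read -1.17, -1.36 and -1.75 before and 1.16, 1.01 and 0.80 after 4-OHT (difference 2.42, SE 0.20). Nr4a1, a nuclear receptor needed by patrolling monocytes, read -2.12, -2.18 and -2.18 before and 0.34, 0.35 and 0.25 after (difference 2.47, SE 0.11). Irf8, a partner of PU.1 on composite sites, rose by 1.55 (SE 0.08) and remained dim, between -2.22 and -2.06 after the drug. Ikzf1 rose by 0.96 and Tfec by 0.63. The plot of factor genes by array gives the levels of all 5.

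**Figure D2:**
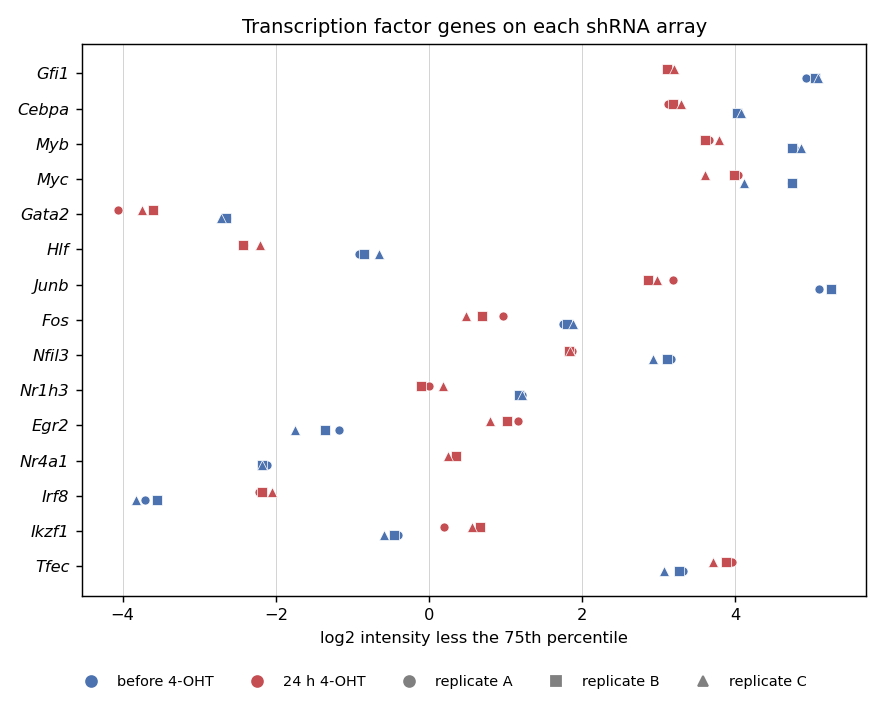
Log2 intensity less the array's 75th percentile (x axis) of 15 transcription factor genes (y axis) on each shRNA array, before (blue) and after 24 h of 4-OHT (red), with replicates by marker shape. Gfi1, Cebpa and Myb move to the left and Egr2, Nr4a1 and Irf8 to the right, and Myc replicate C lies below A and B at both times; Junb has no usable spot for replicate C before 4-OHT.

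Genes of monocyte and macrophage identity rose more often than they fell. Of 26 tested, 18 rose (69.2%, against 16.5% of all genes), none fell (against 21.8%) and 8 did not pass (median 2.19, and 2.11 with bounds). Of these 26, 12 were not well above background on any array before 4-OHT and entered the test through the later arrays, which left a rise as the only likely call; of the 14 others 7 rose. Without shRNA replicate C after 4-OHT 1 of the 26 fell. Another count covers the 29 members with a probe, tested or not. Of these, 14 had any probe well above background on all 3 arrays before 4-OHT and 26 after it. Itgax, the integrin CD11c, read -7.06, -6.97 and -7.26 before, under background, and -1.03, -1.02 and -1.08 after, a rise of at least 17.8-fold. Mpeg1, which encodes a pore-forming protein of phagocyte vacuoles, read -3.43, -3.27 and -3.43 before and 1.46, 1.45 and 1.26 after (27.2-fold). Cx3cr1, the fractalkine receptor, rose at least 32.4-fold, Fcgr1, the high-affinity IgG receptor, at least 26.3-fold, and Mmp12, the macrophage elastase, at least 12.8-fold. Csf1r, the receptor for macrophage colony-stimulating factor, was under background before and read -3.22, -3.18 and -3.01 after, so that it stayed a dim gene at 24 h. Of the 8 that did not pass, Spp1, Emilin2, Plac8 and the tested probe of Lyz2, the macrophage lysozyme, were saturated in both groups, and Marco, Gpnmb, Vcan and Cd163 differed by 0.11 to 0.61. A dimmer probe of Lyz2 read 1.91 ± 0.18 (SD, n = 3) before and 4.73 ± 0.24 after 4-OHT, where it was saturated on all 3 arrays, a difference of at least 2.82 on the log2 scale that was not tested.

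Immunoglobulin-like receptors that pair activating with inhibitory forms made up the list with the largest median, with and without bounds. Of 24 receptor and adaptor genes, 21 rose (87.5%), 1 fell and 2 did not pass (median 3.05, and 2.55 with unmeasured members at their bounds). Of the 19 that were detected on any array before 4-OHT, 16 rose. Pira6 read -7.35, -6.97 and -7.35 before 4-OHT and 2.00, 2.04 and 2.01 after, at least 149-fold. Lilra6, named for its relation to the human leukocyte receptors, rose at least 185-fold, with saturated spots on all 3 arrays after the drug. These paired receptors are near-copies of each other (Pira2, Pira6, Pirb and Lilra6 among them), so a probe may read several. Tyrobp, the DAP12 adaptor through which many of these receptors signal, read -3.17, -3.07 and -3.50 before and 2.23, 2.04 and 1.91 after (39.6-fold), and Trem2, a lipid-sensing receptor that uses it, rose 29.7-fold. Pilra and Pilrb1, an inhibitory and an activating partner, rose at least 46.9-fold and 49.1-fold. Hcst, the DAP10 adaptor, was the 1 that fell (-0.48; named after its value was seen).

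Of 13 C-type lectin receptor genes tested, 10 rose (76.9%), 1 fell (Olr1, -0.66, named after its value was seen) and 2 did not pass, with a median of 2.56 and of 1.30 with bounds; of the 9 detected on any array before 4-OHT, 6 rose. Besides the 3 leading lectins above, Clec4a3 and Clec4a1 of the same cluster rose at least 15.8-fold and 3.19-fold, and Klra2, a lectin-like receptor of the Ly49 family, rose at least 6.15-fold. The tested probe of Clec5a, 1 of the 2 that did not pass, was saturated in both groups. Its dimmer, unsaturated probes differed by 0.87 and 0.71, which was not tested. Of 19 genes of Fc receptors and phagocytic signalling, 11 rose, 3 fell and 5 did not pass (median 0.51). Among the 17 detected on any array before 4-OHT, 9 rose and 3 fell. Fcer1g, the shared signalling chain of Fc receptors, read -2.17, -2.14 and -1.83 before and -0.26, -0.40 and -0.26 after (difference 1.74, SE 0.10). Ptpn6, the phosphatase SHP-1 that inhibitory receptors recruit, rose by 1.63 from 2.40, 2.35 and 2.33 to 3.93, 3.96 and 4.09. The kinase gene Syk rose by 1.46 (baseline measured on 2 of 3 arrays) and Fcgrt, the neonatal Fc receptor, by 1.53, whereas Fcgr4, a receptor for IgG2, fell by 1.03 (SE 0.09). The low-affinity receptors Fcgr3 and Fcgr2b rose by 0.43 and 0.51.

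Cytokine and cytokine receptor genes moved in both directions. Of 33 tested, 17 rose, 6 fell and 10 did not pass (median 0.27, and 0.40 with bounds). Among the 28 detected on any array before 4-OHT, 12 rose and 6 fell. The other 5 all rose, the only likely call that the filter left them. The 4 largest rises were Il18, the decoy receptor Il1r2, the IL-1 receptor Il1r1 and the IL-33 receptor Il1rl1. Il1r2 read -4.33, -4.46 and -3.92 before and 1.08, 0.98 and 1.18 after 4-OHT (39.9-fold), and Il1r1 and Il1rl1 rose at least 10.6-fold and 10.3-fold from under background. Il1b differed by 0.02 and did not pass. Tnf read -1.49, -1.41 and -1.25 before and 1.30, 1.25 and 1.25 after (difference 2.65, SE 0.07), and Ltb rose by 2.82. Osm, the oncostatin M gene that IL-3 signalling induces, read 0.72, 0.43 and 0.28 before and -1.77, -1.58 and -1.92 after (difference -2.23, SE 0.12). The receptor genes Kit, Epor and Tnfrsf1b fell by 1.54, 1.15 and 1.01. The chains of the IL-3 receptor did not pass: Il3ra differed by -0.02, and the tested probe of the shared chain Csf2rb was saturated in both groups, with differences of 0.39 and 0.00 on 2 dimmer probes.

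Of 21 chemokine and chemoattractant receptor genes, 9 rose, 5 fell and 7 did not pass (median 0.24). Among the 17 detected on any array before 4-OHT, 5 rose and 5 fell. The other 4, for which the filter left a rise as the only likely call, all rose. The rises were led by receptors: Ccr2 and Cx3cr1 (above), the formyl peptide receptors Fpr1 (16.3-fold, baseline measured on 1 of 3 arrays) and Fpr2 (at least 19.1-fold), and Ccr1 (a log2 change of 1.40, baseline measured on 2 of 3). Cxcr4, which holds progenitors in marrow niches, fell from 2.16, 2.14 and 2.05 to 0.87, 0.83 and 0.96 (difference -1.23). Ccl4 fell by 1.26, the complement receptor gene C5ar1 by 0.98 and Ccrl2 by 0.98, and Ccl5, the fifth that fell, by 0.41. Of 23 innate sensor and inflammasome genes, 12 rose, 5 fell and 6 did not pass (median 0.25). Tlr8 rose at least 6.91-fold. Ly96, the MD-2 partner of Tlr4, read -1.35, -1.08 and -1.12 before and 0.82, 0.83 and 0.55 after (difference 1.92), Tlr4 itself rose by 0.88, and the inflammasome sensor genes Nlrc4 and Nlrp3 rose by 1.33 (baseline measured on 2 of 3 arrays) and 1.24. Nfkbiz, an inducible regulator of NF-kappaB targets, fell by 1.00.

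Effector machinery of phagocytes was divided. Of 7 phagocyte oxidase genes, 2 rose, 2 fell and 3 did not pass (median 0.00). The membrane subunit genes Cybb and Cyba rose by 2.36 (SE 0.31) and 0.52, and the cytosolic subunit genes Ncf4 and Ncf1 fell by 1.01 (SE 0.12) and 0.42. Ncf4 read 2.66, 2.80 and 2.64 before and 1.65, 1.66 and 1.76 after. Of 35 lysosome genes, 20 rose, 2 fell and 13 did not pass (median 0.42). Ctsc and Ctss, the genes of cathepsins C and S, were under background before and rose at least 14.9-fold and 13.2-fold, and Lgmn, the asparaginyl endopeptidase, read -2.73, -2.72 and -2.71 before and 0.74, 0.66 and 0.46 after (10.1-fold). Subunit genes of the proton pump rose by 1.12 (Atp6v1a) to 1.79 (Atp6v0d2, baseline measured on 2 of 3 arrays). Acp5, the tartrate-resistant phosphatase, fell at least 2.14-fold and Gaa by 0.24.

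Of 21 genes of macrophage lipid handling, 8 rose, 6 fell and 7 did not pass (median 0.07). Among the 18 detected on any array before 4-OHT, 5 rose and 6 fell. The other 3 all rose, the only likely call that the filter left them. Uptake and eicosanoid genes were among the rises: Tbxas1, the thromboxane synthase, 19.5-fold from a baseline that 2 of 3 arrays measured, the scavenger receptor genes Msr1 and Cd36 at least 4.33-fold and 3.27-fold, and the lipase Lpl at least 3.94-fold. Abca1, the cholesterol export pump, read -2.78, -2.49 and -2.89 before and was under background on all 3 arrays after 4-OHT, a fall of at least 5.45-fold. Apoc2 and Ltc4s fell by 1.76 and 1.62. Abcg1, the other cholesterol exporter of the list, differed by 0.07 and did not pass.

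Granule protein genes moved in both directions. Of 15 primary granule and early granulocyte genes, 6 fell, 2 rose and 7, including Mpo and Ctsg, were saturated in both groups and did not pass; over the 8 others the median was -1.20 with bounds. The 2 that rose were Igsf6 (1.62) and Anxa1 (0.64). A dimmer, unsaturated probe of Gstm1, one of the 7, differed by -1.82, which was not tested. Elane, the neutrophil elastase, read 4.56, 4.78 and 4.47 before and 3.07, 3.07 and 3.05 after (difference -1.54, SE 0.15), Prtn3, proteinase 3, fell by 1.22 and Nkg7 by 2.10. Of 15 secondary and tertiary granule genes, 7 rose, 4 fell and 4 did not pass (median -0.21, and 0.78 with bounds). Camp, the cathelicidin gene, fell from 2.88, 3.1 and 2.44 to -0.10, -0.06 and -0.37 (difference -2.98, SE 0.28), and Ngp fell by 2.45 (1 array before 4-OHT saturated). The metalloprotease genes Mmp9 and Mmp8 rose 95.8-fold and 6.84-fold, and Ltf, the lactoferrin gene, rose at least 2.41-fold. The S100a8 and S100a9 probes were saturated in both groups.

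Stem and progenitor genes fell: 16 of 18 tested (88.9%, against 21.8% of all genes), with none higher and 2 that did not pass (median -0.91, and -0.76 with bounds). Kit, the stem cell factor receptor, read 2.10, 2.20 and 2.24 before 4-OHT and 0.63, 0.72 and 0.56 after it (difference -1.54, SE 0.06). The transcription factor genes Sox4, Hlf and Gata2 fell by 1.68, 1.55 and 1.14, and Myb by 1.10 (against the sign of 1 of its 3 other probes). Ly6a, the Sca-1 antigen, read 2.46, 2.69 and 2.88 before and 1.12, 1.19 and 1.31 after. Erg fell at least 1.24-fold to under background, which left a fall as its only likely call. Of the 26 members with a probe, tested or not, 17 had any probe well above background on all 3 arrays before 4-OHT and 15 after it. Flt3 differed by -1.19 and Angpt1 by 0.23, neither past the threshold.

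Markers of other blood lineages were read as a check on the cells. Of 5 T cell genes tested of 14 listed, 2 fell and none rose, Lck by 1.62 (1 of 3 arrays after 4-OHT measured it) and Cd3e by 0.32, a call lost without replicate A or C before or A or B after 4-OHT (adjusted p = 0.0729 to 0.114), with a summed linear signal of 0.382 to 0.42 of the 75th percentile before and 0.285 to 0.324 after 4-OHT; for B cell genes, 6 tested of 12, the sum was 0.573 to 0.599 before and 0.492 to 0.545 after. These sums are under the level of a single gene at the 75th percentile, and the defining genes Cd3d, Cd3g and Cd8a, and Cd79a, Ms4a1 and Pax5, did not enter the test for want of signal or of a matched probe. Of the 6 B cell genes tested, 2 rose, 2 fell and 2 did not pass. Igll1 fell by 1.67 and Vpreb1 by 0.58, and Blnk rose at least 2.92-fold. Cd22 rose by 1.77, a rise absent within slide 3 (-0.15), where replicate C before 4-OHT read -4.38 against -7.37 and -7.16 in A and B. The Cd22 call was also lost without any other single array of the 12 (adjusted p = 0.0578 to 0.162). Mast cell and basophil genes summed to 38.5 to 54.6 before and 29.1 to 38.9 after. These sums include Srgn, whose probe was saturated in both groups. They therefore follow the ceiling in part and give neither a level nor a direction for the list. Of 10 tested, 5 fell, none rose and 5 did not pass (median -0.51, and -0.62 with bounds), with Hdc, the histamine-making enzyme, at -1.55, and Mcpt8 and Prss34, basophil proteases, at -1.04 and -0.62 (the last measured on 1 of 3 arrays after 4-OHT, and lost without replicate B or C before or after 4-OHT, adjusted p = 0.0601 to 0.0951). The mast cell protease genes Cpa3, Cma1, Tpsab1 and Tpsb2 did not enter the test. No eosinophil gene was well above background on all arrays before 4-OHT, and 5 of the 6 tested entered the test only through the arrays after it, so that their direction was fixed by the filter. Their bounds were at least 6.63-fold for Prg2, 2.07-fold for Ear1, 1.4-fold for Siglecf and 1.29-fold for Ear6, and the 6 summed to 0.289 to 0.474 after 4-OHT; the Prg2 call was lost without any 1 of the 3 arrays before 4-OHT, A or B after it, or control replicate A after it (adjusted p = 0.0509 to 0.107). Of 8 erythroid genes, Klf1 fell by 2.10 (2 of 3 arrays after 4-OHT measured it), Epor by 1.15 and Zfpm1 by 0.36, and Tfrc rose by 0.37 (adjusted p = 0.0542 and 0.0562 without replicate A or B before 4-OHT); the haem enzyme gene Alas2 and the globin gene Hbb-b1 did not enter the test. Of 7 megakaryocyte genes, 4 rose and 3 fell, among them Treml1 (6.11-fold higher, baseline measured on 1 of 3 arrays), Rgs18 (2.24 higher on the log2 scale) and Selp and Vwf (both 1.21 lower). MHC class II and dendritic cell genes gave 4 rises of 8 tested and no fall: Cd80 by 2.72, Cd74 by 1.65, H2-DMa by 1.15 and Batf3 by 0.78, while the class II chain genes H2-Aa, H2-Ab1 and H2-Eb1 did not enter the test. In a bulk sample, fewer cells of a type and less RNA per cell cannot be told apart. The part of these cell types in the results above was not tested.

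**Figure D3:**
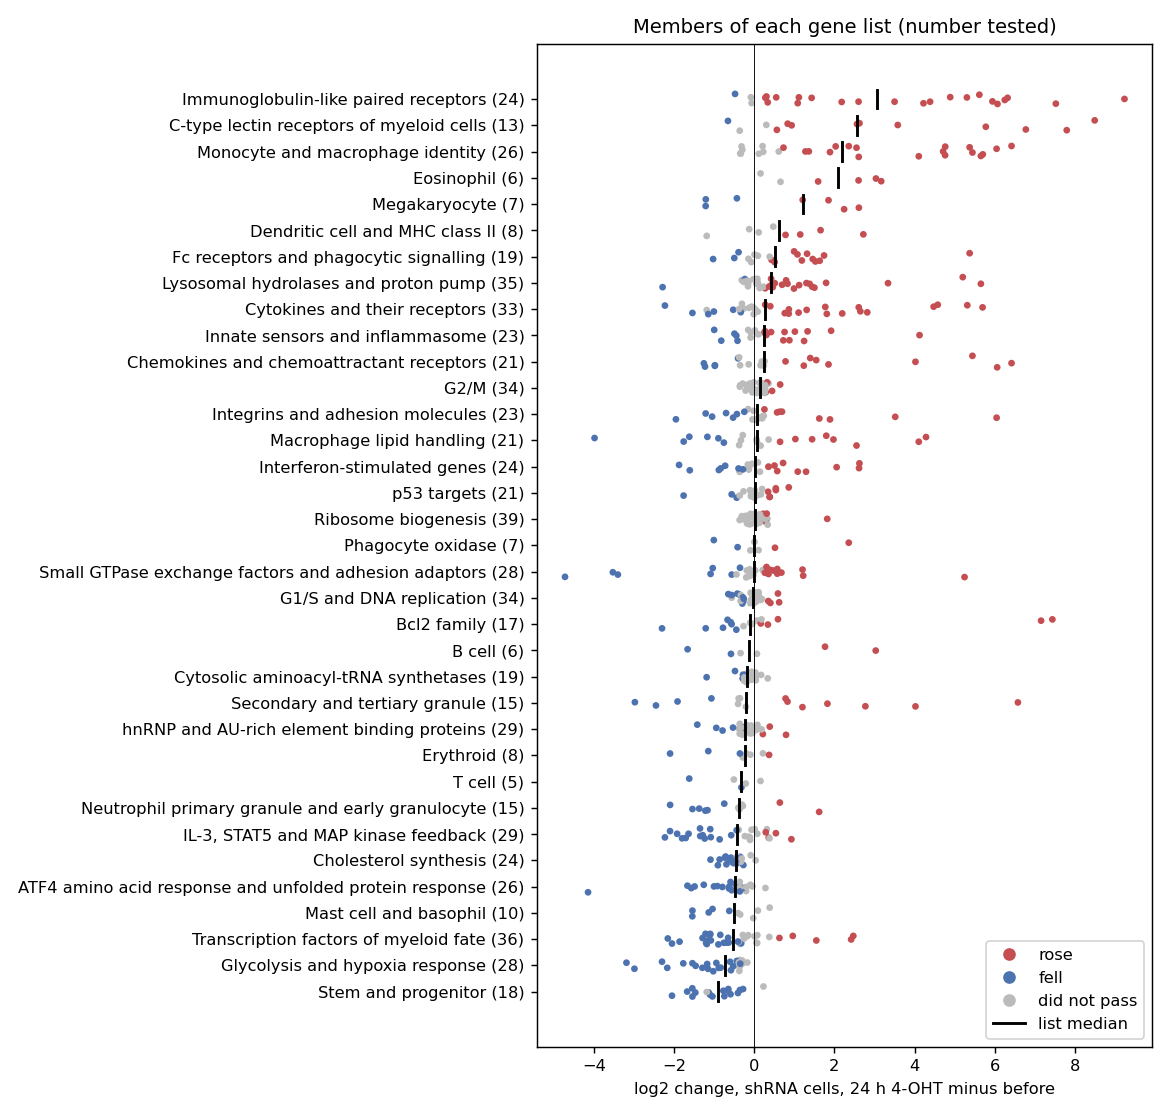
Log2 change in shRNA cells, 24 h of 4-OHT minus before (x axis), of each tested member of the 35 gene lists (y axis, with the number tested), ordered by list median; red points rose, blue points fell, grey points did not pass, and the black bar is the median. Immunoglobulin-like receptors, lectins and macrophage identity genes lie to the right (medians 3.05, 2.56 and 2.19), stem and progenitor and glycolysis genes to the left (-0.91 and -0.72), and the G2/M and ribosome biogenesis lists lie near 0 (0.13 and 0.01).

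Among the 17 Bcl2 family genes, 5 rose, 7 fell and 5 did not pass (median -0.11). Apart from Bcl2a1b and Bcl2a1c the rises were small: Bid by 0.59, Bcl2l1, which encodes BCL-XL, by 0.34, and Bak1 by 0.16. Bcl2 itself read 0.82, 0.67 and 0.81 before and 0.00, 0.06 and 0.23 after 4-OHT (difference -0.67, SE 0.08). Bnip3, a mitophagy receptor induced by hypoxia, fell at least 4.94-fold, and the death-promoting Bmf and Bcl2l11 fell by 0.59 and 0.45. Mcl1, a survival gene that IL-3 maintains, differed by 0.06 and did not pass.

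Early-response and feedback genes downstream of IL-3, STAT5 and MAP kinases fell more often than they rose, in cells whose growth medium held IL-3 in all groups. Of 29 tested, 15 fell (51.7%, against 21.8% of all genes), 4 rose (13.8%, against 16.5%, and 8 with quantile normalization) and 10 did not pass (median -0.44, and -0.51 with bounds). The list also holds the stress and cell cycle genes Gadd45a, Gadd45b, Gadd45g, Mapkapk2, Cdkn1a and Cdkn1b. Gadd45a, Mapkapk2 and Cdkn1a are counted among its falls and Gadd45g among its rises. The MAP kinase phosphatase gene Dusp1 read 1.25, 1.26 and 1.31 before and 0.06, -0.11 and -0.18 after (difference -1.35, SE 0.12), and Dusp2 and Dusp4 fell by 1.80 and 1.64. The stress-response gene Gadd45a read 3.0, 3.0 and 2.60 before and 1.06, 1.02 and 0.74 after, the receptor antagonists Spry2 and Spry1 fell by 1.29 and 1.24, and Ier2 and Ier3 fell by 2.10 and 1.71. Socs3, a feedback inhibitor of cytokine receptors, fell by 1.09 (SE 0.07), with 1 array before it saturated. The STAT5 targets Cish, Pim1 and Socs2 differed by -0.24, 0.38 and 0.31 and did not pass, and Socs1, Dusp16, Spred1 and Gadd45g rose by 0.36, 0.54, 0.29 and 0.93.

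Adhesion genes were evenly divided: of 23 tested, 8 rose, 7 fell and 8 did not pass (median 0.07). Among the 21 detected on any array before 4-OHT, 6 rose and 7 fell. Besides Itgax, Icam1 rose at least 4.00-fold and Itgam, the CD11b integrin chain, read -2.20, -2.01 and -2.29 before and -0.13, -0.19 and -0.51 after (difference 1.89). Their shared partner chain Itgb2 differed by 0.07 and did not pass. Vcam1, a ligand of integrin alpha-4, fell by 1.96 (2 of 3 arrays after 4-OHT measured it), Selp by 1.21 and Pecam1 by 1.05, whereas the alpha-4 chain Itga4 itself rose by 0.63. Of 28 small GTPase exchange factor and adhesion adaptor genes, 12 rose, 7 fell and 9 did not pass (median 0.00). The falls of Bcar1, Rapgef3 and Dock9 were joined by Nedd9, a relative of Bcar1 (-1.09), and by Rasgrp2, an exchange factor of Rap1 (at least 2.05-fold). In the other direction Dock4, an exchange factor of Rac and Rap, read -5.79, -5.71 and -4.67 before and -0.08, -0.10 and -0.24 after (38.0-fold, with the baseline measured on replicate C alone), and its 4 other probes had the same sign. Dock4 and Dock9, of the same gene family, thus moved in opposite directions.

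Metabolic lists fell with no member higher. Of 28 glycolysis and hypoxia genes, 19 fell and 9 did not pass (median -0.72, and -1.02 with bounds); 7 of these 9 were saturated in both groups, Gapdh, Aldoa and Ldha among them. Car9, the hypoxia-induced carbonic anhydrase, read 1.06, 1.11 and 0.90 before and -2.55, -2.01 and -1.94 after (9.13-fold lower). Egln3, an oxygen-sensing prolyl hydroxylase, read 5.04, 5.26 and 5.20 before and 2.16, 2.19 and 2.18 after (7.95-fold lower, with 1 array before it saturated). Vegfa fell 4.51-fold, and the glucose transporter gene Slc2a1, the phosphofructokinase gene Pfkl and the hexokinase gene Hk2 fell by 1.54 (1 array before 4-OHT saturated), 1.30 and 1.02 on the log2 scale; Hif1a, which encodes the hypoxia factor itself, fell by 0.76.

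Of 24 cholesterol synthesis genes, 19 fell and 5 did not pass (median -0.47). The changes were small and even: Tm7sf2, a sterol reductase, read 2.18, 2.23 and 2.21 before and 1.09, 1.09 and 1.16 after (difference -1.09, SE 0.07), Insig1 fell by 0.91 and Srebf2 by 0.46. Of 26 genes of the ATF4 amino acid response and the unfolded protein response, 17 fell and 9 did not pass (median -0.47, and -0.56 with bounds). Aldh1l2 led, followed by Atf3 (-1.67), Cth, the cystathionine lyase (-1.57), Trib3 (-1.49) and the cystine transporter gene Slc7a11 (-1.01, adjusted p = 0.0546 to 0.0573 without replicate C before or B after 4-OHT). Ddit3 differed by -0.10 and the chaperone gene Hspa5 was saturated. Of 19 cytosolic aminoacyl-tRNA synthetase genes, 5 fell and 14 did not pass (median -0.19), and 3 fell without shRNA replicate B before or after 4-OHT. The largest difference was in Dars (-1.19, adjusted p = 0.0256), but its groups overlapped, at 1.35, 1.12 and -0.12 before and -0.06, -0.08 and -1.07 after, with replicate C lowest at both times, and the call was lost without replicate A or B before or C after 4-OHT (adjusted p = 0.085 to 0.0967).

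The cell cycle and ribosome lists had medians near 0. Of 34 G2/M genes, 4 rose (11.8%) and none fell (median 0.13), Kif23, a kinesin of cell division, by 0.65, Nusap1 by 0.44, Bub1b by 0.32 and Cenpa by 0.28. The count was 9 without shRNA replicate C before 4-OHT, 7 without control replicate A after it, and 2 without shRNA replicate B before or any 1 of the 3 shRNA arrays after it; Bub1b and Cenpa lost their calls in such fits (adjusted p = 0.057 to 0.209 and 0.0629 to 0.0884). Of 34 G1/S and replication genes, 9 fell (26.5%), 4 rose (11.8%) and 21 did not pass (median -0.04), beside 21.8% and 16.5% of all genes. The falls numbered 3 and the rises 5 with quantile normalization, and 2 and 3 with median scaling; the 9 became 2 to 5 when any 1 of the 6 shRNA arrays was left out (2 without replicate B before 4-OHT). Cdk6, a D-type cyclin kinase also kept in the stem and progenitor list, read 4.95, 5.09 and 5.33 before and 4.35, 4.45 and 4.62 after (difference -0.65, with 2 arrays before it saturated), and the origin protein gene Orc1 rose by 0.59. Of 39 ribosome biogenesis genes 4 rose and none fell (median 0.01), against 16.5% of all genes that rose and 21.8% that fell. The 4 became 8 without shRNA replicate C before 4-OHT and 1 or 2 without any other shRNA array. The exception in size was Heatr1, a factor of small-subunit processing and rRNA transcription, which read 2.29, 2.40 and 2.69 before and 4.22, 4.24 and 4.38 after (difference 1.82, SE 0.10), with 1.49 and 1.70 on its other probes. Myc, which drives ribosome synthesis, read 4.73, 4.74 and 4.12 before and 4.04, 3.99 and 3.61 after (difference -0.65, SE 0.16, adjusted p = 0.00971), and -0.24 within slide 3.

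Interferon-stimulated genes did not move together. Of 24 tested, 9 rose, 7 fell and 8 did not pass (median 0.02). Usp18, the negative regulator of the interferon receptor, read -4.25, -4.18 and -4.27 before and -1.56, -1.61 and -1.68 after (6.13-fold higher), and Gbp2, Irf7 and Irf9 rose by 2.06, 1.29 and 1.09, whereas Isg20 fell by 1.88 and Ifit3 and Ifit2 by 0.84 and 0.73. Oasl1 rose by 2.63 from a baseline that 1 of 3 arrays measured and that spread between -7.16 and -4.28. Isg15 differed by -0.14 and did not pass. Of 21 p53 target genes, 6 rose, 3 fell and 12 did not pass (median 0.02), with Gdf15, a stress cytokine, at -1.76 and Cdkn1a, the p21 inhibitor, at -0.44.

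Among 29 hnRNP and AU-rich element binding protein genes, the class to which the shRNA target belongs, 3 rose, 5 fell and 21 did not pass (median -0.23, and -0.12 over the 22 that were not saturated in both groups). Besides Hnrnpa0, Zfp36l1, which speeds decay of AU-rich messages, fell at least 1.57-fold and Hnrnpd, the AUF1 protein gene, fell by 0.53, from 4.02, 3.99 and 3.87 to 3.46, 3.43 and 3.39. Tial1 fell by 0.79, with the opposite sign on its other probe. Celf2, a splicing regulator, rose by 0.79 (SE 0.07) with the same sign on its 4 other probes. Zfp36 itself, the tristetraprolin gene, differed by -0.36, and Elavl1 by -0.10.

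The response was then set beside that of control cells, whose 6 arrays are not shared with it. In control cells 6101 genes passed (40.5%), and 4835 genes passed in both with the same sign, 83.8% of the shRNA calls and 79.2% of the control calls. Across the 15061 genes the 2 sets of log2 changes had r = 0.934 and a slope of 0.888 for shRNA on control. Spread in the control changes lowers such a slope, so it does not measure a weaker response in shRNA cells. Genes are not independent replicates, and each vector's arrays share a slide layout of their own. The difference between the responses, tested as the interaction of vector and drug in limma, passed for no gene (0.00%, lowest adjusted p = 0.282), with 790 genes at an unadjusted p under 0.05 (5.25%), and for 1 gene when the variances were moderated with a trend and robustly. That count does not show the responses to be alike gene by gene, since the median SE of the shRNA response alone was 0.11.

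The 5 genes of lowest interaction p all had a smaller fitted change in shRNA cells, 3 of them measured in all groups. Tnni2, a troponin gene, read -3.37, -3.25 and -3.24 before and 2.12, 2.02 and 1.99 after 4-OHT in shRNA cells, a change of 5.33 against 6.28 in control cells (difference -0.95, adjusted p = 0.282). Anpep, the myeloid aminopeptidase CD13, changed by 3.24 against 4.08 (difference -0.84). Dio2, the thyroid hormone deiodinase, fell by 2.05 against 2.61 (adjusted p = 0.331). Klra2 and Fcna, a ficolin gene, were under background before 4-OHT on all arrays of both vectors, so their fitted changes of 2.63 against 4.09 and 2.36 against 3.49 are not measured differences in response. After 4-OHT Klra2 read -2.47 ± 0.07 (SD, n = 3) in shRNA cells and -2.21 ± 0.18 in control cells, and Fcna -4.28 ± 0.19 and -3.46 ± 0.21. None of the 5 interactions passed, and the plot of both responses shows them close to the diagonal.

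**Figure D4:**
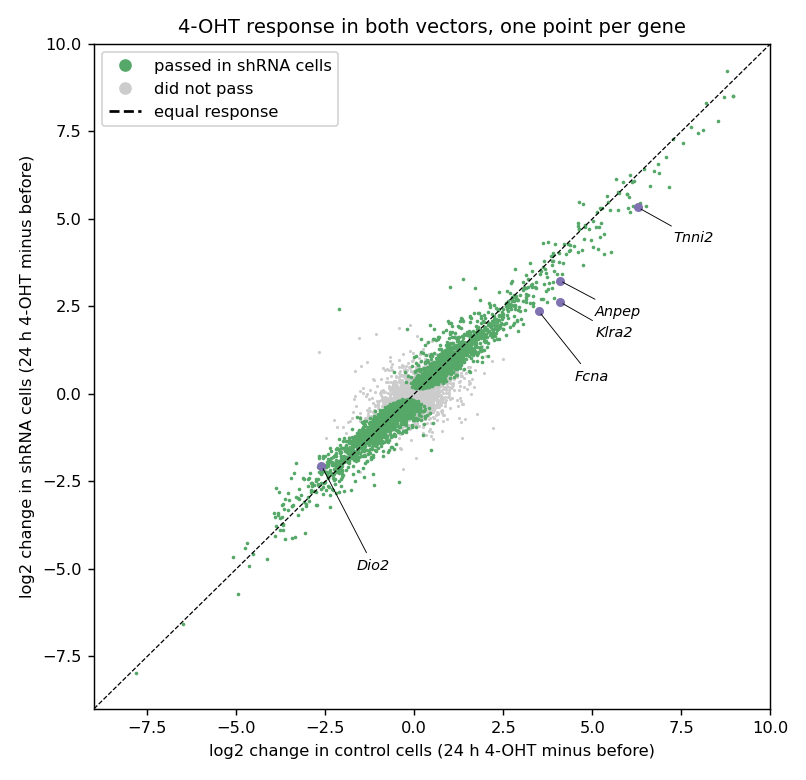
Log2 change after 24 h of 4-OHT in control cells (x axis) and shRNA cells (y axis), a point per gene over 15061 genes; green points passed in shRNA cells, grey points did not, and the dashed line is an equal response. The points scatter along the line, and the fitted slope of shRNA on control changes was 0.888. Spread in the control changes lowers such a slope, so it does not measure a weaker response. The 5 genes of lowest interaction p (purple) lie on the side of the smaller shRNA change. For Klra2 and Fcna the baselines were under background.

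Finally, the response was read within slide 3, where the 3 arrays after 4-OHT stood beside replicate C before it. By this contrast, which takes the spread of the single baseline array to be that of the rest, 3805 genes passed (25.3%), 3551 of them also among the 5769. Of the genes that passed over all arrays 5745 of the 5747 with a value on the lone array kept their sign. The median ratio of the slide 3 change to the change over all arrays was 0.96. Both contrasts use the same 3 arrays after 4-OHT, and replicate C is part of both baselines, so they are not independent. In 2443 of the 2480 rises and 3214 of the 3289 falls the groups did not overlap, which by itself fixes the sign within slide 3. The 5 genes with the largest gap between slides were Slc7a2, Usp17lc, Grap2, Zfp750 and Prickle1. Slc7a2, an arginine transporter gene, read -4.64, -6.09 and -7.36 before and -4.00, -4.50 and -4.40 after, a change of 1.73 over all arrays and 3.06 within slide 3. All 5 were dim, and 4 of them were not well above background on any array of the dimmer group. Among the leading genes the change within slide 3 was close to that over all arrays, 8.23 against 8.50 for Clec4b1, -6.58 against -6.58 for Tmem119 and 1.68 against 1.55 for Irf8.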

How the data were processed

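RNA of 12 PUER cultures was hybridised to 1-colour arrays (design 014868). Per the file headers, images were quantified by the authors in Agilent Feature Extraction, version 9.5.3.1 (9.5 per the submitters' processing notes), and the files give a linear intensity of Cy3 for every spot after background subtraction and detrending, unscaled across arrays. The authors' summary values differed from these by at most 0.497%. Slides came from the file headers. The number of arrays limits the precision, and p-values measure the spread between these cultures.

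From the deposited intensity, log2 values less each array's 75th percentile over spots that are not controls were computed. Spots flagged as outliers were left out after scaling, and spots of a probe were averaged. Of 41174 probes, RefSeq names were found for 23082 by transcript, 6582 by symbol and 3073 by an older symbol, and 8437 kept the name in the file. The brightest probe by mean stood for a gene, and 15061 genes with a probe well above background on 3 or more of the arrays, and a value on 2 or more per group, were tested. limma 3.58.1 in R 4.3.3 fitted 4 group means to all 12 arrays (lmFit, eBayes), with Benjamini-Hochberg adjustment over the 15061 genes, a threshold of 0.05 and SE from the fit; the script was tested on simulated data. Slide 3 was read with its array before 4-OHT as a group of its own. Figures used Python 3.11.15 and matplotlib 3.10.9.

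The 35 gene lists, the rule for named genes and the motif were chosen with earlier results of these data known, and lists are described by counts and medians without a test. The rule names Hnrnpa0, Spi1 and Esr1, then the 15 largest rises and 15 largest falls past the threshold (groups not overlapping, all arrays present, brighter group well above background and not saturated on all 3 arrays, a gene symbol, ordered by fold with bounds), up to 6 members of each list past the threshold, the 5 genes of lowest interaction p and the 5 of largest gap between slides. Other list members named with a value were taken from the lists as examples after their values were seen. Some genes that the rule and the lists name are not reported here. Alternatives covered normalization, background, filters, probes, slide and replicate blocks, and each array left out.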

Additional observations from a re-analysis of the deposited data

Results flagged for a closer look

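There were 3 genes past the threshold in both vectors with opposite signs, beside 4835 with the same sign. AK076350, an unnamed transcript, changed by 2.43 in shRNA cells (adjusted p = 0.015) and by -2.10 in control cells (0.0275), a difference of 4.53 (interaction adjusted p = 0.497). It was not well above background on any shRNA array before 4-OHT. Aste1 changed by 0.61 and -0.57, a difference of 1.19 (adjusted p = 0.537), with 1 shRNA array after 4-OHT missing. Olfr128, an olfactory receptor gene, changed by -0.41 and 0.41, a difference of -0.82 (adjusted p = 0.35), with means of -4.32 and -4.73 in shRNA cells. None of the 3 differences passed, and all 3 genes were dim.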

How the results depend on the processing

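The count of genes past the threshold lay between 3805 and 6427 over all settings. Within slide 3 it was 3805, with 1611 higher; median scaling left 2004 lower. Leaving out 1 array gave 4646 (without shRNA replicate B before 4-OHT) to 6427 genes (without control replicate A after it). The share of calls that were higher was 43.0%, against 51.2% with quantile normalization, 50.5% with median scaling and 47.3% with the 75th percentile taken without outlier spots, an alternative added after seeing the data. Slide as a fixed block, which by its construction sets the arrays after 4-OHT against replicate C alone, gave 4617 calls, 4083 of them shared with the 5769 in the same direction. The difference between the responses passed for 2 genes with slide as a fixed block, 1 with moderation by trend and robustly, and 0 to 1 with 1 array left out. All 204 named genes passed. Of their 5295 values under alternatives 5039 kept direction and call, 252 lost the call and 4 reversed: Cd22 (-0.15 with slide as a fixed block and within slide 3), Rasgrp3 (-0.015 with normexp background) and Lars (0.00047 with quantile normalization); the cause was not tested. Of 1820 list counts 130 moved by over 1.5 times, mostly counts under 10. Saturated probes and probes under background limit what can be read of the brightest and dimmest genes.

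Replicate letters were tried as a block: 5944 genes passed, 5527 of them shared with the 5769. Deviations of same-letter shRNA arrays from their group means correlated at 0.066 (A), -0.036 (B) and 0.153 (C) and those of control arrays at 0.259, 0.054 and 0.197, so the letters were not taken to pair the samples.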

Other observations

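Over all 15061 genes tested, list members included, 156 rose past the threshold from background to clear signal. They were not well above background on any shRNA array before 4-OHT and well above it on all 3 after. Another 114 fell past the threshold and went the other way. Genes that changed in detection without passing are not counted. The genes named here lie outside the lists and were chosen after their values were seen. By bound, 58 of the 156 rose at least 4-fold and 22 of the 114 fell at least 4-fold. Among those that appeared were the intracellular protease inhibitor gene Serpinb12 (at least 37.1-fold), Vdr, the vitamin D receptor (at least 19.8-fold), the acid-sensing receptor Gpr65 (at least 17.9-fold), the phosphatase Ptpro (at least 17.5-fold), Havcr2, which encodes TIM-3 (at least 14.9-fold), Mertk, a receptor for apoptotic cells (at least 12.4-fold), and the histidine and peptide transporter Slc15a3 (at least 7.13-fold). All 7 differed in the same direction in control cells, and also within slide 3, whose arrays are part of the same contrast.

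Among those that disappeared were the smoothelin-like Smtnl2 (at least 8.45-fold), the adaptor Apba2 (at least 7.77-fold), the histone gene H2ac6 (at least 7.33-fold), the potassium channel gene Kcnh5 (at least 7.17-fold), the costimulatory receptor Tnfrsf9 (at least 6.22-fold), Dapk2, a death-associated kinase (at least 5.95-fold), and Tent5c, a poly(A) polymerase (at least 5.13-fold). The histone gene belongs to a family of near-identical copies, so its probe may read others.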
